A study of Mus musculus with 4 samples.

Results

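The genes described here code for the subunits of respiratory complex II (succinate dehydrogenase), complex III (the cytochrome bc1 complex) and mitochondrial ATP synthase, in ventricles of control and Hnrnpu mutant mice. Members were taken by gene symbol from a list of 31, and all 31 were found among the 36814 rows of the authors' table, none in more than 1 row. By role, 4 belong to complex II, 9 to complex III and 18 to ATP synthase or proteins named after it. RNA sequencing was done on ventricles, with the atria removed, at postnatal day 14. The 2 controls are labelled wild type, and the 2 mutants carried a conditional Hnrnpu knockout allele together with a Ckmm-Cre transgene. Each group held 1 male and 1 female on a mixed C57BL/6 and 129 S4 background. The Ckmm promoter drives Cre in striated muscle, so the other cell types of the ventricle keep Hnrnpu, and whether the controls carried the unrecombined conditional allele is not given in the labels. Nothing in the labels says whether animals were littermates. How the authors' test took the spread between samples is not given in the sources used here, and each group mixed the sexes.

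Complex II oxidises succinate, as an enzyme of the citric acid cycle, and passes the electrons to ubiquinone. Complex III carries them from ubiquinol to cytochrome c and moves protons out of the matrix, and ATP synthase lets protons flow back through its membrane part, Fo, to turn the rotor inside its catalytic head, F1. The ventricle makes nearly all of its ATP in this way, and its muscle cells switch from glucose to fatty acids as fuel in the weeks after birth.

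Levels are RPKM (reads scaled by transcript length and by library size). The authors gave 1 value for each group, so no spread is shown beside a level, and where a pair of levels is given the control comes first. Hnrnpu stood at 32.7 RPKM in the controls and 15.2 in the mutants, not called, with adjusted p = 0.438 in the authors' deposited table. A gene was called when the adjusted p of that table was under 0.05. Cardiomyocyte markers were abundant in both groups, with Actc1 at 2380 and 4530 RPKM, a summed level of 10673 RPKM in control and 11089 RPKM in mutant over 12 markers, and none at 0. Of these markers 10 were below control, with a median log2 ratio of -0.44 over all 12, and none was called. The higher sum in mutant rests on Actc1 and Tnnc1, the 2 above control. All 8 macrophage markers in the table were above control, from a summed 55.4 to 132 RPKM, with Fcgr3 called. Of 10 endothelial markers 7 were below control, with a median log2 ratio of -0.38, while Vwf was called higher, and the list summed to 193 and 190 RPKM. Of 8 mural markers 5 were above control and 3 below, with Tagln called higher, and their sum of 297 RPKM in control and 945 RPKM in mutant was mostly Acta2, at 158 and 802 RPKM. All 7 erythroid markers were above control, from a summed 177 to 307 RPKM, and none was called. From the lists for other tissues, Nppa (atrial), Acta1 (skeletal muscle) and Dio2 (brown fat) were called higher and Tnni2 (skeletal muscle) lower, while Myod1 and Myf6, which define skeletal muscle, were at 0 in both groups. Nppa and Acta1 can also be expressed by ventricular muscle. Of 8 fibroblast markers 5 were above control, with sums of 724 and 859 RPKM. The part of these markers in the values below was not tested, and in bulk tissue fewer cells of a type and less RNA per cell cannot be told apart.

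No gene of the 3 complexes was called in the authors' deposited table, against 3.51% of the 24454 rows tested (2.03% higher and 1.48% lower) and 6.70% of rows with a mean of at least 10 RPKM. At an unadjusted p under 0.05 there were 5 members, Atp5sl, Atp5h, Uqcr11, Atp5s and Uqcrb, all lower in mutant, where 6.20% of all tested rows were lower by the same rule. None was higher at that level, against 16.9% of rows with a mean of at least 10 RPKM, of which 5.54% were lower. Of the 30 members with a value above 0 in both groups, 10 were above control and 20 below, with a median log2 ratio of -0.24. The summed level of all 31 members nevertheless went from 2712 RPKM in control to 2853 RPKM in mutant. For complex II the sum went from 276 to 318 RPKM, for complex III from 1045 to 996 and for ATP synthase from 1391 to 1539. Abundant genes weigh most in such sums. Over all 10320 rows where both groups reached 1 RPKM the median was 0.09 and 55.3% were above control, and at a mean of at least 10 RPKM the median was 0.30.

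The sizes were modest. Only 3 members were more than 1.5-fold above control and 10 more than 1.5-fold below, while 10 lay within 1.2-fold. In the authors' deposited table the smallest called rise among rows with a mean of at least 10 RPKM was 3.05-fold and the smallest called fall was to 0.316 of control, whereas the members ran from 0.395 to 1.64 of control. An approximate 95% interval was derived for 26 members from the log2 ratio and the deposited p, taken as a normal test. None was derived for Atp5g2, which has no ratio, or where p was above 0.9 (Sdha, Sdhc, Atp5g3 and Atp5l, all close to control). The standard errors so derived lay between 0.487 and 1.09 in log2 units, with a median of 0.554. The widths come from the p and not from samples, and they cover the spread only as far as that test does.

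**Figure D1:**
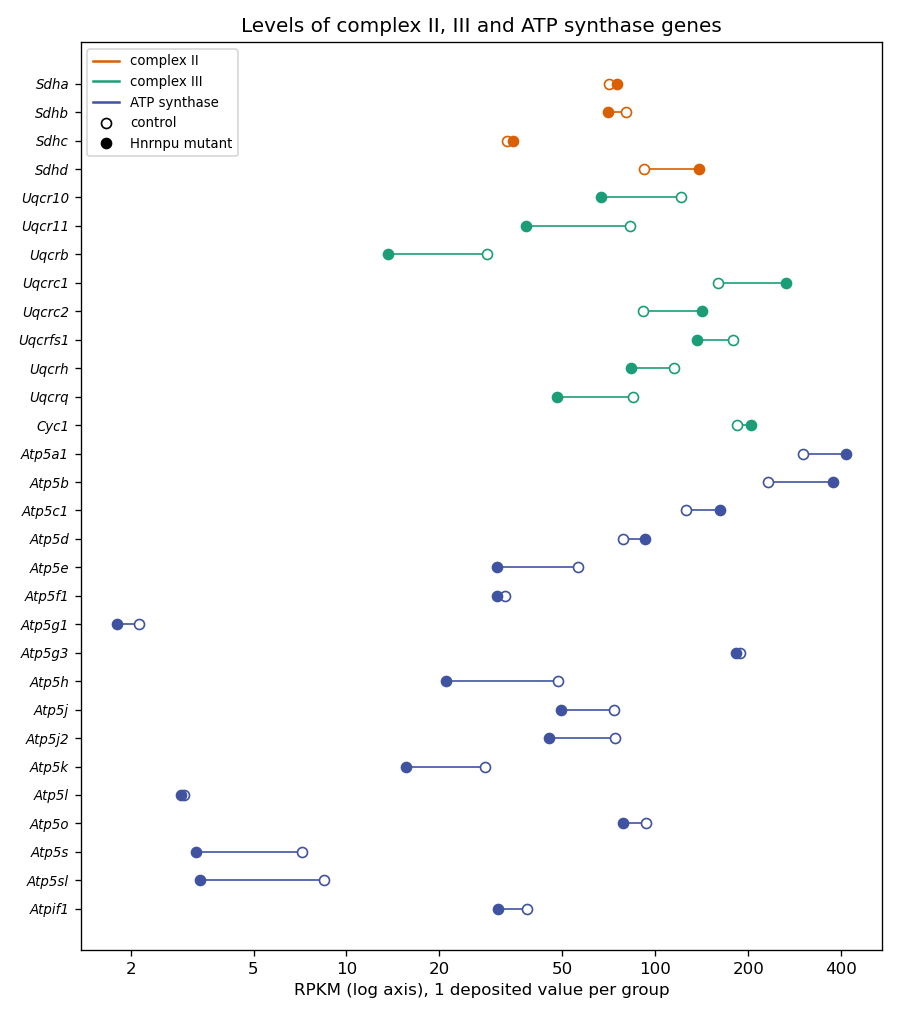
Deposited RPKM of 30 genes of complex II, complex III and ATP synthase on a log axis, with open circles for control and filled circles for Hnrnpu mutant ventricles (Atp5g2, at 0 in control, is left out). The lines run to the left for 20 genes and to the right for 10, among them Uqcrc1 from 160 to 264 RPKM.

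Complex II had 3 of its 4 genes within 1.2-fold of control. Sdha, the flavoprotein that oxidises succinate, stood at 70.9 RPKM in the controls and 75.3 in the mutants. Sdhb, the iron-sulfur subunit that relays the electrons, stood at 80.1 RPKM in the controls and 70 in the mutants. The membrane anchors bind ubiquinone: Sdhc was listed at 33.2 and 34.5 RPKM, and Sdhd at 91.9 and 138 RPKM. Sdhd (chromosome 9, 50404443 to 50411954, minus strand, mm9) thus stood apart from its partners, with a log2 ratio of 0.58 (approximate 95% interval from -0.587 to 1.75) and p = 0.329 in the authors' deposited table. The median log2 ratio of the 4 genes was 0.07, but -0.02 when set against the median of all rows, so no direction is given for the complex. Sdha and Sdhc change side under that scaling.

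In complex III the genes of the large core proteins lay above control and those of the small subunits below, but Uqcrfs1 was below as well. Uqcrc1 and Uqcrc2 code for the large core proteins that face the matrix. Uqcrc1 (chromosome 9, 108838661 to 108851685, plus strand) stood at 160 RPKM in the controls and 264 in the mutants, the highest ratio among the 30 genes with a value above 0 in both groups. Uqcrc2 (chromosome 7, 127778690 to 127802992, plus strand) was listed at 91.3 and 142 RPKM. Cyc1, cytochrome c1, which hands the electron to cytochrome c, was nearly level at 184 and 204 RPKM. Uqcrfs1, the Rieske iron-sulfur protein that takes the electron from ubiquinol, stood at 178 RPKM in the controls and 136 in the mutants. In the authors' deposited table these redox and core subunits had p = 0.312 for Uqcrc1, 0.345 for Uqcrc2, 0.822 for Cyc1 and 0.519 for Uqcrfs1.

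The small subunits of complex III, which surround the core and carry no redox centre, were all below control. Uqcr11 (chromosome 10, 79865742 to 79869575, minus strand) stood at 82.9 RPKM in the controls and 38 in the mutants, a log2 ratio of -1.13 (from -2.11 to -0.145), with p = 0.0245 and adjusted p = 0.269 in the authors' deposited table. Uqcrb (chromosome 13, 67001557 to 67006286, minus strand) was listed at 28.5 and 13.6 RPKM, with p = 0.0427 and adjusted p = 0.369 in the authors' deposited table. Both were therefore at less than 0.5 of control without a call. Uqcr10 stood at 121 RPKM in the controls and 66.5 in the mutants, and Uqcrq at 84.7 and 47.9 RPKM. Uqcrh, the hinge protein that sits by cytochrome c1, was the nearest to control of the 5, at 115 and 83.7 RPKM. The 9 genes of complex III had a median of -0.46, yet their summed level went from 1045 to 996 RPKM.

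The F1 head of ATP synthase lay mostly above control. Atp5a1 and Atp5b code for the alpha and beta subunits that alternate around the head, with the catalytic sites mainly on beta. Atp5a1 was the most abundant of all members, at 301 RPKM in the controls and 413 in the mutants. Atp5b (chromosome 10, 127520329 to 127527447, plus strand) was listed at 232 and 375 RPKM, a log2 ratio of 0.70 with the widest interval of the members, from -1.44 to 2.83. Atp5c1, the gamma subunit that forms the rotating shaft, was listed at 126 and 162 RPKM, and Atp5d, the delta subunit at its foot, at 78.8 and 92.8 RPKM. Atp5e, the small epsilon subunit of the same foot, went the other way, from 56.2 RPKM in the controls to 30.8 in the mutants (p = 0.0955 and adjusted p = 0.534 in the authors' deposited table). The F1 genes thus had 4 of 5 above control and a median log2 ratio of 0.37, with none called. All rows with a mean of at least 10 RPKM had a median of 0.30, with 65.2% above control, so the F1 median lay near that level.

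The stalk that holds the head still, and the small membrane subunits around it, were below control in 7 of 7 genes. Their median was -0.57. Where the RPKM of a gene that shares part of the sequence was added (below), 5 of 7 were below control. Atp5f1 and Atp5l then lay above, but the added gene made up 80.8% and 60.9% of their control sums. Without such additions the 7 genes had a summed level of 352 RPKM in control and 243 RPKM in mutant. Atp5h, subunit d of the peripheral stalk (chromosome 11, 115277003 to 115281276, minus strand), was the lowest, at 48.5 RPKM in the controls and 21 in the mutants. Its log2 ratio was -1.21 (from -2.22 to -0.196), with p = 0.0193 and adjusted p = 0.234 in the authors' deposited table. Of its partners in the stalk, Atp5j (coupling factor F6) was listed at 73.2 and 49.5 RPKM. Atp5o (OSCP, which caps the head) was listed at 93.3 and 78.4 RPKM, and Atp5f1 (subunit b) at 32.7 and 30.7 RPKM. Members of 1 stalk thus ranged from less than 0.5 of control to almost level. The membrane subunits Atp5j2 (subunit f), Atp5k (subunit e) and Atp5l (subunit g) lie where ATP synthase forms dimers that bend the cristae. Atp5j2 stood at 73.8 RPKM in the controls and 45.3 in the mutants, Atp5k at 28.0 and 15.6 RPKM, and Atp5l at only 2.98 and 2.91 RPKM. Of the other small subunits of the enzyme, 2010107E04Rik (Atp5mpl) was listed at 135 and 91.2 RPKM and Usmg5 (Atp5md) at 14.1 and 10.9 RPKM.

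**Figure D2:**
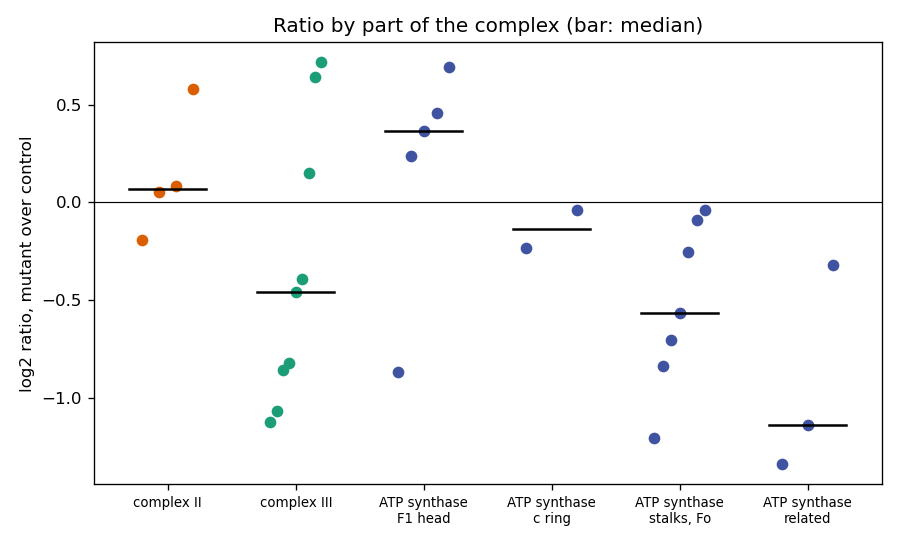
Log2 ratio of mutant over control for each gene (points) and the median (bars) in complex II, complex III and the parts of ATP synthase. The F1 head has its median at 0.37 and the stalk and membrane subunits theirs at -0.57.

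The c ring, the rotor that protons turn, is made of copies of 1 small protein that comes from 3 genes. Atp5g3 (chromosome 2, 73746504 to 73749383, minus strand) carried nearly all of the c subunit RNA, at 188 RPKM in the controls and 183 in the mutants. Atp5g1 (chromosome 11, 95930166 to 95936984, minus strand) was listed at 2.13 and 1.81 RPKM. Atp5g2 (chromosome 15, 102493299 to 102501478, minus strand) was listed at 0 in the controls and 0.0479 RPKM in the mutants. The last 75 codons before the stop of each gene, which encode the mature c subunit, are shown because the genes code for the same protein there with different letters. They are from GENCODE M21 transcripts, 5′ to 3′, with capitals at the 57 of 225 positions where the 3 genes are not all the same.
Atp5g1: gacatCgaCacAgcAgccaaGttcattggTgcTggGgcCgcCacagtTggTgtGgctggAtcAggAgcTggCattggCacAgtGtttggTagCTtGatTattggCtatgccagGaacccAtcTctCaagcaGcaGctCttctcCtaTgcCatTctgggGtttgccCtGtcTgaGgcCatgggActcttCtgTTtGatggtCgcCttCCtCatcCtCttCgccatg
Atp5g2: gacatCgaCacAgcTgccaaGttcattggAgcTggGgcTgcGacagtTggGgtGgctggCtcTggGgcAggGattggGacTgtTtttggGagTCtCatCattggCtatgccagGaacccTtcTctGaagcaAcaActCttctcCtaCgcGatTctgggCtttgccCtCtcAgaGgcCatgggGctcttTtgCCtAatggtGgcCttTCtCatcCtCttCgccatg
Atp5g3: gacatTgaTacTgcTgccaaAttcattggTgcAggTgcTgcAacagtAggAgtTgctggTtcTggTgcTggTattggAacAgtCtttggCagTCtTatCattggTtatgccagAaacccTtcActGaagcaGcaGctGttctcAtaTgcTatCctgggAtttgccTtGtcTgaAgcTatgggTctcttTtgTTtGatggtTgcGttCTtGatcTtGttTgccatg

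Translated, these stretches gave the same peptide for every pair of genes, with 0 residues different, and 52 of the 57 differing positions were at the third base of a codon. Identity between Atp5g1 and Atp5g2 was 84.9%, with a longest identical run of 20 bases, and that between Atp5g2 and Atp5g3 was 78.7%, with a run of 8 bases. The longest run between Atp5g1 and Atp5g3 was 11 bases. The 3 genes thus share no stretch here as long as the 50 bases used below to look for shared words. Other copies in the genome do: 87.4% of the 50-base words of the Atp5g2 transcript were also in the pseudogene Gm10175, which was listed at 0 in both groups. For reads that match several places, the way of counting is not given in the sources used here, so the low listing of Atp5g2 is uncertain, and the same holds for the share of each c subunit gene.

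Several other members have such copies. A coding transcript of each member was cut into overlapping 50-base words. The share also found in transcripts of other genes, on either strand, was counted. It was 0 for 13 members and over 20% for 7. These include Atp5g2, and also Uqcrc2, whose shared words lie in a gene that overlaps it and not in a copy elsewhere. Atp5l had 84.8% of its words elsewhere, spread over 14 other genes of which 12 were pseudogenes, and its level of about 3 RPKM stood far below that of its partners. Atp5h shared 46% with Gm10250, at 427 RPKM in the controls and 224 in the mutants, well above Atp5h itself. Atp5o shared 19.1% with Gm5436, at 225 and 194 RPKM, and Atp5f1 shared 23.2% with Gm12231, at 138 and 161 RPKM. Uqcr11 shared 10.9% with Gm16418, at 68.1 and 34.1 RPKM, and Uqcrb shared 27.2% with Gm16089, at 19 and 12.7 RPKM. Atp5g1 shared 7.18% with Gm10039, at 0.486 and 0.362 RPKM. That share was counted over a transcript of 4715 bases that codes for 136 residues, and depends on the transcript taken. Levels of these members are therefore uncertain.

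When the RPKM of that copy was added, Atp5h had a log2 ratio of -0.96, Uqcr11 of -1.07 and Uqcrb of -0.85. Atp5f1 changed side, from -0.09 to 0.17, and so did Atp5l, to 0.05, while Atp5o stayed below at -0.22. A further limit is overlap: 7 members lie over another gene with a mean of at least 1 RPKM. Uqcrc2 overlaps Pdzd9 on the other strand, Atp5j overlaps Gabpa, and the row of Atp5o spans chromosome 16 from 91684643 to 91931932 with Itsn1, Donson and Cryzl1 inside. How reads from the stretches that such genes share were assigned is not given in the sources used here. For Uqcrc2 24.8% of the 50-base words were also in Pdzd9, and for Atp5j 11.3% were in Gabpa.

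The remaining members act on ATP synthase or carry its name. Atpif1, the inhibitor that stops the enzyme from running backwards and using up ATP, stood at 38.5 RPKM in the controls and 30.9 in the mutants. Atp5s (Dmac2l), known as coupling factor B, was listed at 7.17 and 3.26 RPKM, with p = 0.0348 and adjusted p = 0.330 in the authors' deposited table. Atp5sl (chromosome 7, 26404433 to 26410570, plus strand) was at 8.48 and 3.35 RPKM, the lowest ratio of all members. Its log2 ratio was -1.34 (from -2.35 to -0.329), with p = 0.00943 and adjusted p = 0.153 in the authors' deposited table. Atp5sl is now named Dmac2 and is known as an assembly factor of complex I, so it is a member by its old name and not a subunit of ATP synthase. The subunits that mitochondrial DNA encodes, mt-Cytb of complex III and mt-Atp6 and mt-Atp8 of ATP synthase, were listed at 0 in both groups, as were all 38 rows of the mitochondrial genome, and give no value here.

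**Figure D3:**
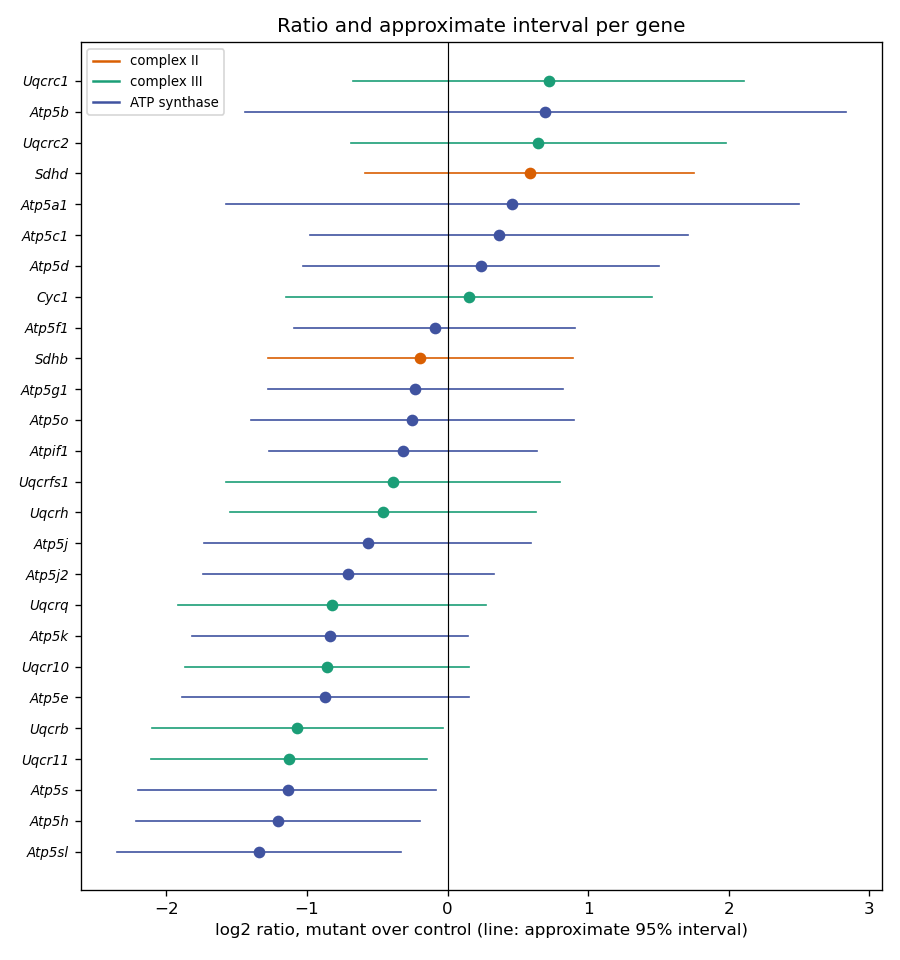
Log2 ratio of mutant over control (points) with the approximate 95% interval (lines) for the 26 members for which one was derived, in order of the ratio. The interval leaves out 0 for 5 genes, all at the low end, from Atp5sl at -1.34 to Uqcrb at -1.07. These are the genes with an unadjusted p under 0.05, from which the interval was derived, and none of them passed after adjustment.

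The ratios were compared with the length of the encoded protein, a property that did not enter the choice of members but was looked at after the values were seen. Of the 17 members that code for fewer than 200 residues, 14 were below control, with a median log2 ratio of -0.57. Of the 13 longer ones, 7 were above and 6 below, with a median of 0.09. In complex III all 5 short genes were below control, from Uqcr11 with 56 residues to Uqcrb with 111, while 3 of the 4 long ones were above, with Uqcrfs1 the exception. In ATP synthase 9 of 10 short genes were below, the exception being Atp5d with 168 residues. Its long genes were divided, with 3 above control and 4 below and a median of -0.09. Those below were Atp5f1, Atp5o, Atp5s and Atp5sl. The count and median thus include Atp5s and Atp5sl, listed only as related to the enzyme, of which Atp5sl is not a subunit. The lowest ratio of all members was on the long side, that of Atp5sl with 258 residues. Next came the short Atp5h with 161 residues, and then Atp5s with 200, counted as long. Complex II did not follow, since its short anchors Sdhc and Sdhd were both above control. Over 30 members the Spearman correlation between length and log2 ratio was 0.63, and it was 0.56 with transcript length and -0.08 with GC content. With mean RPKM it was 0.62, about as high as with length, and length and level were not separated. Genes measured in the same samples are not independent points.

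The same split was then read in the other complexes. Of complex I subunits under 200 residues 23 of 25 were below control, with a median of -0.49, against 7 of 10 longer ones with a median of -0.29. Ndufa4, counted with complex I by its name only, stood at 383 and 359 RPKM. Ndufa3 was at 37 and 15 RPKM and Ndufc1 at 20.8 and 10.6 RPKM, and none of these was called. All 14 nuclear genes of complex IV in the list are short, and 9 were below, with Cox7a1 called, from 130 to 31.5 RPKM (adjusted p = 0.00594 in the authors' deposited table). Cox4i1 stood at 430 and 392 RPKM and Cox8b at 194 and 71.3 RPKM. Across all protein coding rows at 1 RPKM or more in each group the order was not seen: 61.4% of 1036 short genes were above control, as were 54.4% of 7334 long ones, and the Spearman correlation with length was -0.21. Among those with a mean of at least 10 RPKM, 62.3% of the short and 65.9% of the long genes were above control. Their medians were 0.21 and 0.33, with the short genes slightly lower, and the Spearman correlation with length was -0.07. No test of these differences was made.

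**Figure D4:**
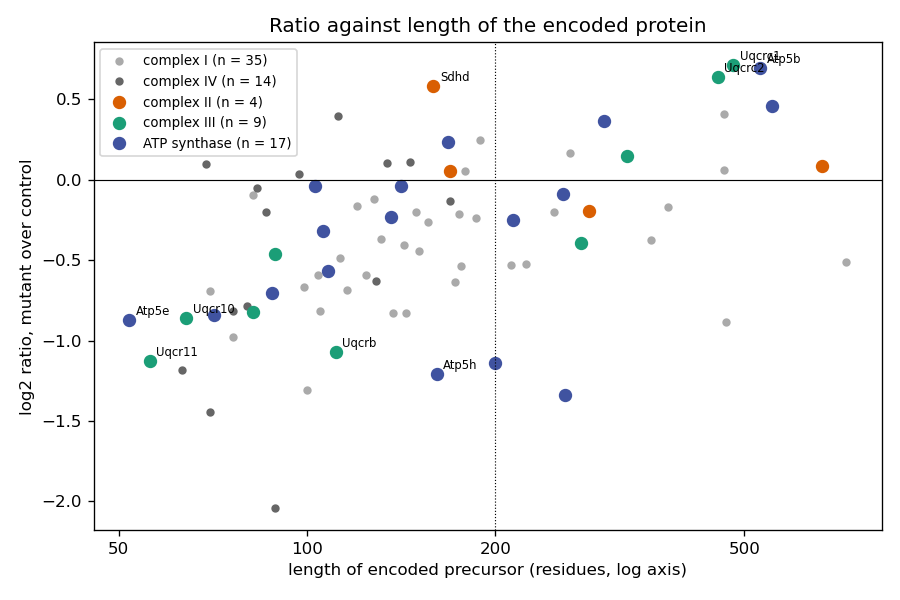
Log2 ratio of mutant over control against the length of the encoded precursor in residues (log axis) for complex II, complex III and ATP synthase (large points) and complexes I and IV (small grey points), with a dotted line at 200 residues. Short subunits such as Uqcr11 and Atp5e sit low and the long Uqcrc1, Uqcrc2 and Atp5b sit high, but Atp5sl, Atp5s and Uqcrfs1 are long and below control, and Sdhc, Sdhd and Atp5d are short and above it.

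Genes of oxidative phosphorylation are known targets of the nuclear respiratory factors NRF1 and GABP, so the promoter windows were searched for their sites. RefSeq windows on GRCm38.p6, from 250 bases before to 50 after the start of transcription, were at hand for 25 members. The NRF1 site, 10 letters with a free base at the sixth, searched on both strands, was in 10 of the 25 (40%), against 5.19% of 27025 genes and 12.8% of the 1498 genes whose mean reached 10 RPKM. Sites that lie, with 20 bases on either side, upstream of the start are shown with those bases, 5′ to 3′ on the strand of the gene, with the site in capitals, since genes on both sides of control hold the same letters.
Sdha (chr13:74350309-74350358, minus strand): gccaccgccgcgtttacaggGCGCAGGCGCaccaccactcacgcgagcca
Sdhd (chr9:50603899-50603948, minus strand): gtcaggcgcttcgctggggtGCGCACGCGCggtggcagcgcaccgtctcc
Atp5g2 (chr15:102671060-102671109, minus strand): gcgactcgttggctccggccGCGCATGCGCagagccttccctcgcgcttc
Atp5h (chr11:115420031-115420080, minus strand): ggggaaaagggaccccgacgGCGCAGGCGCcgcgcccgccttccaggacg
Atp5k (chr5:108434420-108434469, minus strand): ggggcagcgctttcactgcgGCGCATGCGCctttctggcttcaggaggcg
Atpif1 (chr4:132535526-132535575, minus strand): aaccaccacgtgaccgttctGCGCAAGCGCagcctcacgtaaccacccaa

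Of the members with the NRF1 letters and a ratio, 4 were above control (Sdha, Sdhd, Uqcrc1 and Atp5c1) and 5 below (Atp5g3, Atp5h, Atp5k, Atp5o and Atpif1). The highest ratio, that of Uqcrc1, and the lowest of a subunit, that of Atp5h, were thus both among them. The GABP site CCGGAAG was in 9 of 25 members (36%), against 9.93% of all genes and 19.4% of those whose mean reached that level. Of these 9, Sdhd was above control and 8 were below (Atp5e, Atp5h, Atp5j, Atp5k, Atp5l, Sdhb, Uqcr11 and Uqcrh). A YY1 site was in Atp5sl and Atpif1, 8% of the members against 3.34% of the genes at that level. These are matches of letters and not sites shown to be bound. Nrf1 itself stood at 0.929 RPKM in the controls and 0.952 in the mutants, Gabpa at 4.76 and 3.77 RPKM and Yy1 at 7.07 and 7.16 RPKM.

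Of the 12 regulators of respiratory genes in the list, 1 was called. Ppargc1b, a coactivator of the PGC-1 family, fell from 14.8 to 3.18 RPKM, with adjusted p = 0.00225 in the authors' deposited table. Its relative Ppargc1a was listed at 10.7 and 6.63 RPKM, and Esrra, the estrogen-related receptor that works with both, at 17.0 and 9.13 RPKM. Ppara, a nuclear receptor for fatty acids, was listed at 3.31 and 1.18 RPKM, with p = 0.00546 and adjusted p = 0.107 in the authors' deposited table. Among the 9 at 1 RPKM or more in each group, 7 were below control and the median was -0.69.

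Genes that assemble the complexes or link them were also without a call. The ATP synthase factor 1110001J03Rik (Fmc1) stood at 19.9 RPKM in the controls and 8.69 in the mutants, with p = 0.0251 and adjusted p = 0.273 in the authors' deposited table. Atpaf2, which helps to build the F1 head, was at 4.21 and 7.25 RPKM, and Tmem70, needed for ATP synthase assembly, at 16.1 and 13.6 RPKM. For complex III, Bcs1l, which inserts the Rieske protein, was listed at 3.53 and 1.98 RPKM, and Ttc19 at 6.02 and 3.37 RPKM. All 4 complex III factors at 1 RPKM or more in each group were below control. For complex II, Sdhaf2, which attaches the flavin to Sdha, was listed at 7.86 and 6.52 RPKM and 1110058L19Rik (Sdhaf4) at 8.11 and 4.80 RPKM. Of 13 genes for ubiquinone synthesis and cytochrome c at that level, 10 were below control, with a median of -0.53. Adck3 (Coq8a) stood at 29.3 and 27.4 RPKM and Coq4 at 1.15 and 2.29 RPKM. Among them Adck4 (Coq8b) was at 1.10 and 2.86 RPKM, with p = 0.0124 and adjusted p = 0.179 in the authors' deposited table.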

How the data were processed

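The authors' single deposited table was used. Per the file headers it gives RPKM for control and for mutant, 1 value per group, the authors' fold change as a ratio to control, the log2 of that ratio, and the p-value of each row with its adjusted form. Per the submitters' processing notes, Bowtie 0.12.9, DESeq (no version) and the build mm9 were used, with no step named; read counter, annotation and strandedness: not given in the sources used here. The ratio of the RPKM columns was within 0.971% of the deposited fold wherever both groups reached 1 RPKM, and the adjustment recomputed by Benjamini-Hochberg differed by at most 0.593%. No model per sample could be fitted to group values, so the authors' test is the only one used.

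Read totals are not in the table. In small RNA genes, RPKM times length in kilobases stepped by 0.017 in control and 0.00649 in mutant. Taken as the worth of 1 read, these put the members at 95.2 or more steps in control (Atp5l), except Atp5g2, at 0 in control and 5.39 steps in mutant.

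Members and gene lists were chosen with earlier results of these data known. Every member is named. From other lists, called genes, the most abundant gene and the 2 farthest from control were named (of marker lists, the called and some abundant genes), and regulators whose promoter sites were searched were added after their values were seen, as were Ppargc1a and the length comparison. Transcripts came from GENCODE M21, from which 1 member was matched by its newer symbol, and promoter windows from RefSeq. Python 3.11.15, pandas 2.3.3 and scipy 1.17.1 were used, and the adjustment was tested on simulated data. Alternatives were the rows adjusted over, the threshold, the scale, a pseudocount, filters and sums with copies.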

Additional observations from a re-analysis of the deposited data

How the results depend on the processing

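No paired analysis was possible because the table holds 1 value per group, and for the same reason leaving out a replicate, a count model and a second tool were not run. No member was called when p-values were adjusted over rows with a mean of at least 1 or 10 RPKM, or at an adjusted p under 0.1; at an unadjusted p under 0.05 there were 5 members in all and 5 lower. Of 47 values under alternatives, 40 stayed within 0.1 (log2) or at the same count, but several of these could not have moved further. No member had more than 1 row to sum, and leaving out the highest and the lowest member keeps a median. Setting values against the median of all rows shifted each by 0.0881, which is under 0.1. The counts called in all, lower and higher also overlap, so the 40 are no measure of robustness. The median of complex II reversed to -0.018 relative to the median of all rows, and that of ATP synthase was -0.147 with 10 RPKM added, against -0.251. Alternatives chosen after seeing the data moved the length comparison: short members had a median of -0.706 split at 150 residues and -0.425 at 300, and long members 0.550 at 300. The causes were not tested. Precision is limited by 2 animals per group, and levels of members with copies elsewhere by how shared reads were counted.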

Other observations

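The vacuolar ATPase is the other rotary proton enzyme of the cell, and acidifies lysosomes. Of its 12 listed genes at 1 RPKM or more in each group, 10 were above control, with a median log2 ratio of 0.65. Of all rows at that level 55.3% were above control. The ATP synthase genes, with Atp5s, Atp5sl and Atpif1 among them, had a median of -0.25, and those of its F1 head 0.37. These differences were not tested. No gene of the vacuolar ATPase was called in the authors' deposited table, where 3 were higher at p under 0.05 before adjustment. Atp6v1h stood at 5.85 RPKM in the controls and 15.5 in the mutants, with adjusted p = 0.106 in the authors' deposited table. Atp6v1b2 was at 5.06 and 12.9 RPKM, and Atp6v1e1 at 24.8 and 50.3 RPKM.

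Genes of other mitochondrial compartments were on both sides of control. Slc25a4, the main carrier that exchanges ADP for ATP in heart, stood at 513 RPKM in the controls and 638 in the mutants, and Slc25a5, its relative, at 36.6 and 63.5 RPKM. Hspa9, the matrix chaperone that pulls proteins in, was listed at 38.3 and 94.5 RPKM, with p = 0.0355 and adjusted p = 0.333 in the authors' deposited table. Cs, citrate synthase, was at 155 and 128 RPKM, and Tomm22, a receptor of the outer membrane, at 20.3 and 13 RPKM. Of the genes that shape the cristae, Immt was listed at 20.1 and 29.9 RPKM and Chchd3 at 45.2 and 27.1 RPKM, without a call.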
